A study of Mus musculus with 2 samples.

Results

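Malat1, Neat1, Tug1, Miat and 2310065F04Rik are 5 long noncoding RNA genes of the mouse, chosen by name. They are 5 of the 55536 annotated genes in the tables, of which 13374 are annotated as long noncoding, and they carry 24 annotated transcripts. All 5 were found by symbol. RNA levels were measured by total RNA sequencing of the gastrocnemius, the large calf muscle, in 2 adult male mice aged 8 to 10 months. Both animals were B6CASTF1/J, a hybrid bred from C57BL/6J and CAST/EiJ parents, and neither had a treatment in the labels. Replicate 2 is animal number 4 and replicate 1 is animal number 2, with 1 library each, and the labels place both under 1 shared donor identifier. Each library was made from 300 ng of RNA with a directional kit, after reduction of ribosomal RNA and with an external spike-in mix. The design therefore gives the level of each RNA in this muscle and a comparison of 2 libraries, with no replicate of either animal.

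Long noncoding RNAs are transcripts with no known protein product, and several of them act in the nucleus where they are made. Malat1 collects in nuclear speckles, bodies rich in splicing factors. Neat1 is the scaffold of paraspeckles, bodies that form around its long form. The short form of Neat1 starts at the same promoter, ends early at a poly(A) signal, and cannot build a paraspeckle without the long one. Tug1 has been tied to Polycomb repression and to Ppargc1a, a regulator of mitochondrial genes. Miat, also known as Gomafu, is a nuclear RNA best known from neurons and retina, where its repeats bind splicing factors. 2310065F04Rik, known as linc-MYH, lies among the fast myosin heavy chain genes of skeletal muscle.

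The gene tables held 37752249 counts in replicate 2 and 36792611 in replicate 1. Their counts differed by far more than sampling noise, with a chi-square of 94.4 for each degree of freedom, and they were kept as separate samples. That figure sums over genes and is weighted toward genes with very many counts. Of 9516 genes averaging 100 counts or more, 3.39% were 1.5-fold apart. In a mixed tissue such as muscle, fewer cells of a type and less RNA per cell cannot be told apart. The 8 skeletal muscle fibre markers summed to 67656 TPM (a relative level scaled by transcript length and library) in replicate 2 and 64572 TPM in replicate 1. All 6 endothelial markers were higher in replicate 2, with sums of 48.7 TPM in replicate 2 and 40.2 TPM in replicate 1, and so were all 5 adipocyte markers, at 30.9 TPM in replicate 2 and 21.9 TPM in replicate 1. The 5 macrophage markers summed to 4.26 TPM in replicate 2 and 5.43 TPM in replicate 1, and the 4 neuron markers to 0.27 TPM in replicate 2 and 0.31 TPM in replicate 1. No marker of these lists was at 0 in both. Gm42418, annotated as a long noncoding RNA, held 62919 counts in replicate 2 and 735980 in replicate 1, so shares of all long noncoding counts differ between the libraries. The entry for Lars2, which encodes the mitochondrial leucyl-tRNA synthetase, stood further apart, with 2966 counts in replicate 2 and 206159 in replicate 1. Which RNA the reads of these 2 entries came from was not examined. The part of these differences in the results that follow was not tested.

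The sequences at the ends of Malat1 and of both Neat1 forms are shown because they separate RNAs that end in a poly(A) tail from RNAs that end in a genomically encoded A-rich tract. The long form of Neat1 and the mature form of Malat1 are known to end at such a tract. RNase P makes that end by cutting in front of a tRNA-like RNA that follows. The tract folds with upstream U-rich sequence into a triple helix that protects it. The letters come from the GENCODE M21 transcript sequences on mm10 and are written as DNA, 5′ to 3′ on the minus strand, on which all 5 genes lie. In the first pair, capitals mark AAAAAGCAAAA, the A-rich block formed by the last 11 annotated bases of long Neat1, and TTTTGCTTTT, a U-rich block of 10 bases upstream that is complementary to it. The marked blocks were found by complementarity and do not show the whole triple helix. The first sequence lies at chr19:5795924-5796037 in Malat1-201 and includes the 58 bases behind the A-rich block, and the second lies at chr19:5824708-5824770, the annotated end of Neat1-201.
Malat1-201 processing region: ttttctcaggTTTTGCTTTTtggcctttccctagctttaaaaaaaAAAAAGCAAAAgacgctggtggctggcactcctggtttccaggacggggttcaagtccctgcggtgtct
Neat1-201 end: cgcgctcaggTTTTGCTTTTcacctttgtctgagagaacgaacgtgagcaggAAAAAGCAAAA

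The blocks are 25 bases apart in Malat1 and 32 bases apart in Neat1. Searched on the transcript strand, TTTTGCTTTT followed by AAAAAGCAAAA within 60 bases occurred in 4 of 141767 annotated transcripts (0.00282%), which belong to Malat1, Neat1 and Retreg3. The annotation of Neat1-201 stops at the last base of the A-rich block. That of Malat1-201 runs on for 292 bases and ends at chr19:5795690-5795749, where capitals mark AATAAA, the poly(A) signal. The short Neat1-202 ends with the same signal at chr19:5842307-5842366.
Malat1-201 end: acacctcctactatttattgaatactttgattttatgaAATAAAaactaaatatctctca
Neat1-202 end: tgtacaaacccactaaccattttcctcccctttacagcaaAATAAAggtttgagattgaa

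AATAAA occurred in the last 50 bases of 26.6% of 141672 annotated transcripts, searched on the transcript strand. Neat1-201 had none in that window. Directly behind the annotated Neat1-201 end, at chr19:5824652-5824707, lies the annotated small RNA Gm27702, of 56 bases, shown because it lies at the place where RNase P is known to cut.
Gm27702-201: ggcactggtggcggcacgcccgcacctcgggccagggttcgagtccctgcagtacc

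Gm27702 had an effective length of 0 in the tables, since 100 bases were taken off each transcript's length, so its listed 0 counts in both libraries are no measurement. The same holds for Gm27694, a small RNA of 86 bases inside Malat1.

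Malat1 (ENSMUSG00000092341.3, chromosome 19, 5795690 to 5802672 in mm10, minus strand) was the most abundant of the 5 RNAs. It held 575 TPM in replicate 2 and 605 TPM in replicate 1 (590.0 ± 20.6 TPM, SD, n = 2). Its estimated counts were 45047 in replicate 2 and 41025 in replicate 1. Malat1 ranked 3 among long noncoding genes by mean TPM and by mean counts, and 88 among all annotated genes by TPM. It took 7.88% of all long noncoding counts in replicate 2 and 3.22% in replicate 1, where Gm42418 took more.

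Neat1 (ENSMUSG00000092274.3, chromosome 19, 5824708 to 5845478, minus strand) came next by TPM. It neighbours Malat1 on the chromosome and is transcribed from the same strand. Neat1 held 77.2 TPM in replicate 2 and 86.5 TPM in replicate 1 (81.8 ± 6.58 TPM, SD, n = 2), from 9408 counts in replicate 2 and 12181 in replicate 1. It ranked 8 among long noncoding genes by TPM and 6 by counts. The ratio of Malat1 to Neat1 in TPM was 7.46 in replicate 2 and 6.99 in replicate 1. Its size depended on the measure. In the second quantification it was 4.85 in replicate 2 and 4.87 in replicate 1. By counts per kb of the longest transcript it was 14.4 in replicate 2 and 10.1 in replicate 1.

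2310065F04Rik (ENSMUSG00000087410.7, chromosome 11, 67112461 to 67120080, minus strand) held 50.6 TPM in replicate 2 and 66.2 TPM in replicate 1 (58.4 ± 11.0 TPM, SD, n = 2), from 2618 counts in replicate 2 and 3111 in replicate 1. It ranked 16 among long noncoding genes by TPM. Tug1 (ENSMUSG00000056579.18, chromosome 11, 3639785 to 3649673, minus strand) held 10.7 TPM in replicate 2 and 12.04 TPM in replicate 1 (11.4 ± 0.969 TPM, SD, n = 2) and ranked 42, from 1190 counts in replicate 2 and 1230 in replicate 1. Tug1 is annotated as antisense and overlaps 483 bases of the protein-coding gene Morc2a on the other strand. The strand setting of the authors' counting was not given in the sources used here, so reads in that overlap may be shared, and Morc2a held 901 counts in replicate 2 and 875 in replicate 1.

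Miat (ENSMUSG00000097767.8, chromosome 5, 112213228 to 112229395, minus strand) was near the limit of detection. It held 22 counts in replicate 2 and 19 in replicate 1, listed as 0.19 TPM in replicate 2 and 0.20 TPM in replicate 1 (0.195 ± 0.0071 TPM, SD, n = 2). The authors' own intervals for its TPM, 0.204 to 1.13 in replicate 2 and 0.219 to 1.27 in replicate 1, lie above these listed values, so its TPM is less certain than the SD shows. Miat ranked 1140 among long noncoding genes by TPM.

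**Figure D1:**
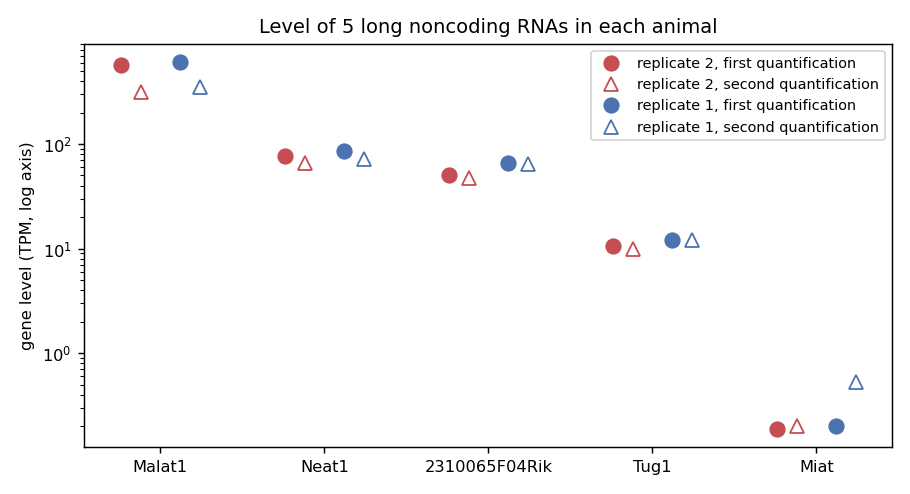
Gene level in TPM (log axis) of the 5 long noncoding RNAs in replicate 2 (red, left of each pair) and replicate 1 (blue), with circles for the first and open triangles for the second of the authors' quantifications. In the first quantification Malat1 sits highest, at 575 TPM in replicate 2 and 605 TPM in replicate 1, and Miat lowest, at 0.19 TPM in replicate 2 and 0.20 TPM in replicate 1.

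The order Malat1, Neat1, 2310065F04Rik, Tug1, Miat held in each animal in both quantifications, and the ranges over the animals of neighbours in that order did not overlap. The narrowest step was between Neat1 and 2310065F04Rik, with a TPM ratio of 1.53 in replicate 2 and 1.31 in replicate 1. In the second quantification that ratio was 1.37 in replicate 2 and 1.12 in replicate 1. This step turned round when counts were divided by the effective length of the longest transcript, which does not depend on how reads were shared among transcripts. On that scale Neat1 held 455 counts per kb in replicate 2 and 589 in replicate 1, and 2310065F04Rik held 998 in replicate 2 and 1186 in replicate 1. The other 3 steps kept their direction on it. Malat1 itself was lower in the second quantification, at 317 TPM in replicate 2 and 347 TPM in replicate 1, with more estimated counts, 49058 in replicate 2 and 44269 in replicate 1.

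By scaled counts Neat1 differed most of the 3 members that passed the test, Malat1 and Miat did not pass, and no member was higher in replicate 2 past the test. By TPM the gap between the animals was wider for 2310065F04Rik, at 50.6 TPM in replicate 2 and 66.2 TPM in replicate 1, than for Neat1, at 77.2 TPM in replicate 2 and 86.5 TPM in replicate 1. Library sizes were set by edgeR's TMM method, and an exact two-sided conditional binomial test was run over 14101 genes with Benjamini-Hochberg adjustment at 0.05, which covers counting error only and compares these libraries. Of the 5 members, 3 were called lower in replicate 2, none higher, and 2 were not called. Among all tested genes 10.8% were called lower in replicate 2 and 10.7% higher, 21.6% in all, and among 986 tested long noncoding genes 6.9% were called lower and 11% in either direction. The 5 were not tested as a list. None of the 4 members averaging 100 counts or more was 1.5-fold apart, against 3.39% of the 9516 genes at that depth (1.72% lower in replicate 2 and 1.67% higher) and 3.45% of 145 long noncoding genes.

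Neat1 was 1.44-fold higher in replicate 1 (log2 ratio of replicate 2 over replicate 1 −0.52, counting interval at 95% −0.56 to −0.48, exact binomial test, adjusted p = 9.88e-153). The size of this ratio exceeded that of 95.4% of all genes averaging 100 counts or more. 2310065F04Rik was 1.32-fold higher in replicate 1 (log2 ratio −0.40, interval −0.47 to −0.32, exact binomial test, adjusted p = 9.05e-24), a size above 91.3% of those genes. Tug1 had a log2 ratio of −0.20 (interval −0.31 to −0.08, exact binomial test, adjusted p = 0.00591), above 71.4%. Malat1 had a log2 ratio of −0.02 (interval −0.03 to 0.00, exact binomial test, adjusted p = 0.288), and Miat of 0.05 (interval −0.89 to 1.03, exact binomial test, adjusted p = 1). The Miat interval spans nearly 2-fold in either direction, so a difference of that size was not detectable at the depth of these libraries.

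The median log2 ratio over all tested genes was 0.12 when libraries were scaled by total counts and −0.15 when scaled by spike-ins, against 0.00 with TMM. The share of calls that were higher in replicate 2 was 83.2% with total counts and 12.9% with spike-ins, against 49.8% with TMM. Malat1 took the direction of each shift, with 0.10 under total counts and −0.17 under spike-ins, both past the test, while Neat1 and 2310065F04Rik kept theirs under each scaling, at −0.41 to −0.67 and −0.29 to −0.55. Tug1 was not called under total counts (log2 ratio −0.085, exact binomial test, adjusted p = 0.287). When biological variation of 0.1 between animals was assumed in edgeR's exact test, no member was called, with adjusted p = 0.239 for Neat1, 0.615 for 2310065F04Rik and 1 for Tug1.

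The difference in Neat1 lay in its long form. Neat1-201 is the long form, a single exon of 20771 bases. Neat1-202 is the short form, 3004 bases in 2 exons with an intron of 166 bases, and it ends at position 3172 of the long form, which runs on for 17599 bases. Neat1-201 held 3626 counts in replicate 2 and 6846 in replicate 1, or 6.15 TPM in replicate 2 and 13.15 TPM in replicate 1. The authors' intervals for its TPM, 5.79 to 6.21 in replicate 2 and 12.47 to 13.11 in replicate 1, did not overlap. The listed 13.15 TPM in replicate 1 lies just above its own interval. Malat1-201 lies above its intervals in both libraries, so these intervals are a rough guide only. Neat1-202 held 5732 counts in replicate 2 and 5322 in replicate 1, or 69.2 TPM in replicate 2 and 72.8 TPM in replicate 1. Its intervals, 65.6 to 69.3 in replicate 2 and 68.7 to 72.8 in replicate 1, did overlap.

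**Figure D2:**
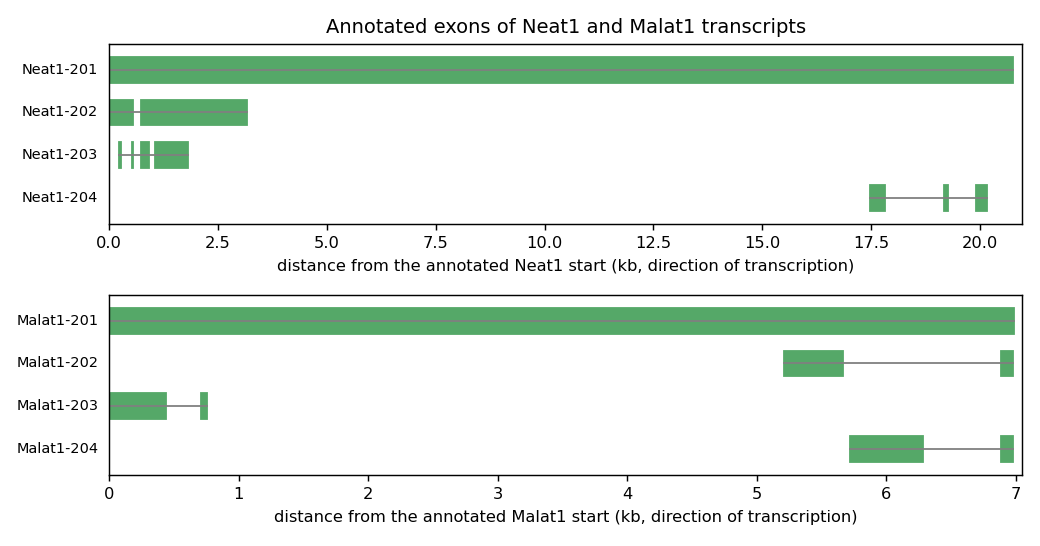
Annotated exons (green boxes) and introns (grey lines) of the 4 Neat1 and 4 Malat1 transcripts, placed by distance in kb from the annotated start of the gene in the direction of transcription. The short Neat1-202 spans the first 3172 of the 20771 bases of Neat1-201, and the last exons of Malat1-202 and Malat1-204 begin at the same place near the end of Malat1-201.

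The long form was 2.09-fold higher in replicate 1 by scaled counts (log2 ratio of replicate 2 over replicate 1 −1.07, counting interval −1.13 to −1.01). The short form had a log2 ratio of −0.04 (interval −0.10 to 0.01). In the second quantification the long form held 5.14 TPM in replicate 2 and 11.2 TPM in replicate 1, and the short form 54.3 TPM in replicate 2 and 56.8 TPM in replicate 1. The log2 ratios there were −1.07 for the long form (interval −1.13 to −1.02) and −0.01 for the short form (interval −0.07 to 0.04). The gene's deposited effective length followed its mix of forms, at 4272 bases in replicate 2 and 5593 in replicate 1, so its TPM differed less between the animals than its counts. Both quantifications used the same reads, so they are not independent. Under the other scalings the long form stayed between −0.95 and −1.22, while the short form was at 0.07 with total counts and −0.19 with spike-ins. A 1.5-fold lower level in replicate 2 was seen for 7.37% of 13600 transcripts averaging 100 counts or more, and for 8.09% of 14384 in the second quantification. Neat1-201 was more than 2-fold lower in both, as were 1.16% of 12157 transcripts.

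By these estimates the short form made up most Neat1 molecules and the long form a large part of Neat1 reads. By TPM the long form was 8.16% of both forms in replicate 2 and 15.3% in replicate 1, so that there were 11.2 short molecules to 1 long one in replicate 2 and 5.53 in replicate 1. By counts, which weight by length, the long form was 38.7% in replicate 2 and 56.3% in replicate 1. The ratio of long to short fell by 1.02 on the log2 scale in replicate 2, relative to replicate 1, and by 1.06 in the second quantification. The deposited share of the gene was 7.97% in replicate 2 and 15.21% in replicate 1 for Neat1-201, and 89.63% in replicate 2 and 84.14% in replicate 1 for Neat1-202. Neat1-203, a spliced RNA of 1030 bases within the short form, held 1.85 TPM in replicate 2 and 0.56 TPM in replicate 1, and Neat1-204 was listed at 0 in both. None of the 31-base words of Neat1-202 is its own, as all of them occur in another Neat1 transcript, whereas 17098 words (82.7%) of Neat1-201 are. Of the 2974 words of Neat1-202, 2945 occur in Neat1-201, and the other 29 do not occur in the long form but are shared with Neat1-203.

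**Figure D3:**
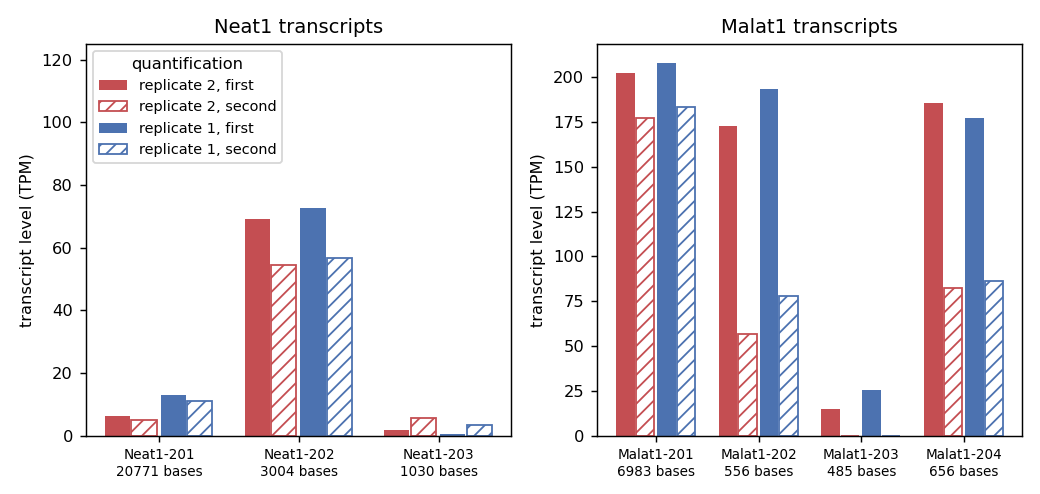
Transcript level in TPM of Neat1 (left) and Malat1 (right), with red bars for replicate 2 and blue bars for replicate 1; filled bars are the first and hatched bars the second quantification. Neat1-201 stands at 6.15 TPM in replicate 2 and 13.15 TPM in replicate 1, while Neat1-202 stands at 69.2 TPM in replicate 2 and 72.8 TPM in replicate 1; the short Malat1 transcripts are far lower in the second quantification than in the first.

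Long transcripts as a class were slightly lower in replicate 2, much less so than long Neat1. The 172 transcripts over 12000 bases averaging 100 counts or more had a median log2 ratio of −0.14, and 20 of them (11.6%) were 1.5-fold lower in replicate 2. The median was −0.03 for the 3613 transcripts of over 4000 and up to 8000 bases and 0.06 for the 428 of up to 500 bases. In the second quantification 15 of 177 long transcripts (8.47%) were 1.5-fold lower. Of 163 long transcripts measured in both quantifications, 8 were as low as Neat1-201 or lower in the first and 4 in both, Neat1-201 included. Among long genes, the log2 ratio was −0.46 for Ttn, which encodes titin, and −0.55 for Kcnq1ot1, another long nuclear noncoding RNA, and the median of 176 genes with an effective length over 8000 bases was −0.11. The part of transcript length in the Neat1 difference was not tested.

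**Figure D4:**
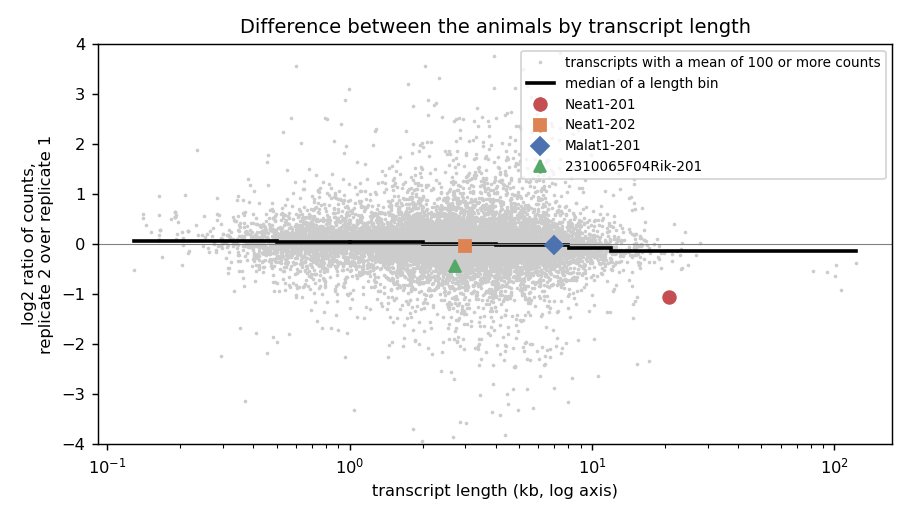
Log2 ratio of counts of replicate 2 over replicate 1 against transcript length in kb (log axis) for transcripts averaging 100 counts or more (grey), with the median of each length bin (black lines); transcripts outside the plotted range of the vertical axis are not drawn. Neat1-201 lies at −1.07, below the median of −0.14 for transcripts over 12000 bases, while Neat1-202 and Malat1-201 lie at −0.04 and −0.01.

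Malat1 reads came mostly from its full-length transcript in both animals. Malat1-201, a single exon of 6983 bases, held 39690 counts in replicate 2 and 36072 in replicate 1, which were 88.1% of the gene's counts in replicate 2 and 87.9% in replicate 1. By TPM its deposited share was only 35.12% in replicate 2 and 34.42% in replicate 1 (34.8% ± 0.495, SD, n = 2), because 2 short spliced transcripts were given high TPM. Malat1-202, of 556 bases, held 173 TPM in replicate 2 and 194 TPM in replicate 1, and Malat1-204, of 656 bases, held 186 TPM in replicate 2 and 177 TPM in replicate 1. In the second quantification Malat1-202 held 56.8 TPM in replicate 2 and 77.9 TPM in replicate 1, and Malat1-204 held 82.6 TPM in replicate 2 and 86.0 TPM in replicate 1. The log2 ratio of replicate 2 over replicate 1 was −0.14 in the first quantification and −0.38 in the second for Malat1-202, and 0.10 and 0.01 for Malat1-204. The share of Malat1-201 in the second quantification was 54.4% ± 2.22 (SD, n = 2). Malat1-203, of 485 bases, held 14.9 TPM in replicate 2 and 25.7 TPM in replicate 1 in the first quantification and was listed at 0 in both animals in the second.

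Only words across splice junctions tell the short Malat1 transcripts apart. Malat1-202 has 25 words of 31 bases of its own, Malat1-203 has 26 and Malat1-204 has 26, against 5487 in Malat1-201. The last exons of Malat1-202 and Malat1-204 start at position 6888 of Malat1-201, after skipped stretches of 1218 and 603 bases that hold the U-rich and A-rich blocks shown above (positions 6646 to 6691). The levels of these spliced forms thus rest on few distinguishing positions. Between the animals the full-length form had a log2 ratio of −0.01 (interval −0.03 to 0.01) in the first quantification and 0.00 (interval −0.02 to 0.02) in the second. With other scalings it took the shift of all genes, at 0.10 with total counts and −0.16 with spike-ins.

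2310065F04Rik was split almost evenly between its transcripts by TPM. 2310065F04Rik-201, of 2724 bases, held 26.1 TPM in replicate 2 and 36.2 TPM in replicate 1, and 2310065F04Rik-202, of 1049 bases, held 24.5 TPM in replicate 2 and 29.9 TPM in replicate 1. Both were lower in replicate 2, with log2 ratios of −0.44 (interval −0.53 to −0.36) for the longer and −0.26 (interval −0.42 to −0.11) for the shorter. The share of 2310065F04Rik-201 was 51.59% in replicate 2 and 54.76% in replicate 1, and in the second quantification 46.4% in replicate 2 and 48.3% in replicate 1. All 31-base words of this gene occur in no other annotated gene on the transcript strand, and no annotated gene overlaps it. Words on the opposite strand were not searched, so read sharing with other genes was not fully tested.

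The transcripts of Tug1 could not be assigned firmly. Tug1-203, of 5112 bases, was given 29.62% of the gene's TPM in replicate 2 and 37.61% in replicate 1, the largest share in the first quantification. In the second it had 4.64% in replicate 2 and 0 in replicate 1, and Tug1-202, of 4720 bases, had 36.7% in replicate 2 and 41.1% in replicate 1. None of the words of Tug1-203 is its own. Tug1-205, of 1612 bases, of whose words 90.8% are its own, held 20.85% in replicate 2 and 22.47% in replicate 1, and in the second quantification 28.2% in replicate 2 and 24.6% in replicate 1. For the whole gene, 94.6% of words occur in no other gene on the transcript strand, as do 97.6% for Malat1, 97.9% for Neat1 and 93.6% for Miat.

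Miat had too few counts to compare its transcripts. The first quantification gave nearly all counts to Miat-201 in replicate 2 (19.95 counts) and to Miat-205 in replicate 1 (16.89 counts), and Miat-201 has only 26 words of its own. These 2 transcripts carry TACTAAC repeats, written UACUAAC in RNA, which resemble the intron branch point and are the known binding motif of SF1 and, in longer form, of Quaking. One cluster at chr5:112216752-112216812 is shown because it sets Miat apart from the other members, with capitals marking TACTAAC.
Miat-201 repeat cluster: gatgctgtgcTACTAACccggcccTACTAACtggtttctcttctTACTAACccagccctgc

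Miat-201 and Miat-205 hold 6 copies each on their own strand and 0 on the other, Neat1-201 holds 1, and no other transcript of the 5 genes holds any. At least 6 copies occurred in 3 of 1642 annotated transcripts of 8000 or more bases (0.183%), which belong to Miat and Slc8a1.

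Of 16 tested neighbours within 100 kb of Neat1, Ehbp1l1 was called higher in replicate 2 (log2 ratio 0.11) and none was called lower, beside 10.7% higher and 10.8% lower over all tested genes. Of 14 tested neighbours of Malat1, Ehbp1l1 was called higher and Neat1 lower. Frmd8, the nearest protein-coding neighbour of Neat1, had a log2 ratio of −0.12 and did not pass the test. Small RNAs annotated within the first part of Neat1 took few counts, with 102 in replicate 2 and 92.9 in replicate 1 for Gm27533. Around 2310065F04Rik, 8 neighbours were tested. The embryonic myosin gene Myh3, 10.2 kb away, had a log2 ratio of −0.05 and did not pass in the first quantification. In the second, Myh3 was called lower in replicate 2, at −0.45 (exact binomial test, adjusted p = 0.0018). In the first quantification Myh2, 50.9 kb away, was lower in replicate 2 at −0.21, and Myh1 was higher at 0.04. Sco1, a copper chaperone of cytochrome oxidase, was lower there at −0.60. Near Tug1, 3 genes were tested, of which Smtn was higher in replicate 2 (0.23) and Morc2a (−0.11) did not pass, and near Miat none of 3 passed.

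Genes for paraspeckle proteins passed the test in both directions. All 25 listed genes were tested, of which 6 were called higher in replicate 2 and 4 lower, and 15 were not called, where 10.7% of all 14101 tested genes were called higher, 10.8% lower and 21.6% in all. The median log2 ratio was 0.01 beside 0.00 over those genes. All 25 averaged 100 counts or more, and deeper genes pass a counting test at smaller ratios. The shares called are therefore not compared at like depth. Of the 25, 2 were 1.5-fold higher in replicate 2 and 0 were lower. Over all 9516 genes at that depth, 1.67% were higher and 1.72% lower. The cold-inducible RNA-binding protein genes Rbm3 and Cirbp differed most, higher in replicate 2 at 0.67 and 0.60. Hnrnpk, which is needed to make the long Neat1 form, was the most abundant at 88.3 TPM on average and was higher at 0.28, while Tardbp, which encodes TDP-43, was lower at −0.22 and Hnrnpa1 at −0.01 did not pass. The core paraspeckle genes Sfpq, Pspc1 and Nono were chosen for mention after their values were seen. Sfpq and Pspc1 were lower in replicate 2 at −0.22 and −0.39, and Nono at 0.01 did not pass. Under total counts Sfpq, Pspc1 and Tardbp were not called, and in the second quantification Pspc1 was not called. Nudt21 and Cpsf6, whose proteins favour the poly(A) site that ends the short form, had log2 ratios of 0.07 and −0.18 and did not pass. In the second quantification Cpsf6 was called lower, at −0.19 (exact binomial test, adjusted p = 0.0316).

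Genes for nuclear speckle proteins also split. Of 22 tested, 3 were called higher in replicate 2, 5 lower and 14 not, beside 21.6% called in either direction over all tested genes, with a median of −0.05. Under total counts 13 were called. All 22 averaged 100 counts or more, of which 1 was 1.5-fold higher in replicate 2 and 0 were lower. Over all 9516 genes at that depth, 3.39% were 1.5-fold apart. The scaffold genes were Srrm2, lower at −0.19, and Son, at −0.02 and not past the test. The splicing factor genes Srsf5 and Srsf7 differed most, at 0.70 and −0.42. Of the 12 tested genes for processing or binding the Malat1 end, none was called higher and 2 lower, beside 10.8% lower over all tested genes, with a median of −0.07. They were Mettl16, whose protein binds the Malat1 triple helix, at −0.31, and Rpp14, which encodes an RNase P subunit, at −0.20. Rpp14 passed narrowly (exact binomial test, adjusted p = 0.0466) and was not called with DESeq2 size factors (0.0554), total counts (0.444) or the second quantification (0.057). Elac2, which encodes the RNase Z that trims the tRNA-like RNA, did not pass at 0.11. Rpp25 was listed at 0 in both libraries. Of the 10 genes of the Malat1 end list averaging 100 counts or more, 0 were 1.5-fold apart.

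Of 8 Tug1 partners, 2 were called higher in replicate 2 and 1 lower, beside 10.7% higher and 10.8% lower over all tested genes, with a median of −0.02. The one lower was Ppargc1a, at −0.53, with 13.8 TPM in replicate 2 and 19.8 TPM in replicate 1, and the others were the Polycomb genes Jarid2 at 0.33 and Ezh1 at 0.19. Of 4 tested Miat partners, 3 were called lower, Qk (−0.26), Srsf1 (−0.23) and Sf1 (−0.14), and Celf1 (−0.03) did not pass, with a median of −0.18, where 10.8% of all tested genes were called lower. Under total counts only Qk of the 4 was called, and in the second quantification Sf1 was not called. Srsf1 is also on the nuclear speckle list. Celf3, a mainly neuronal partner, held 1 count in each library. Of the 9 genes of the fast myosin locus and its regulators, 3 were called higher and 2 lower, beside 10.7% higher and 10.8% lower over all tested genes, with a median of 0.04. Myh4 (0.16) and Myh8 (0.22) were higher in replicate 2, and Six4 (−0.41) was lower. All tested genes of these 3 lists averaged 100 counts or more, deeper than many genes in the shares beside them. Of the 8 Tug1 partners, 4 Miat partners and 9 genes of the myosin list, 0 were 1.5-fold apart. That compares with 3.39% of all 9516 genes at that depth.

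Of 15 other tested long noncoding RNAs, 2 were called higher in replicate 2 and 3 lower, beside 11% called in either direction over all 986 tested long noncoding genes. Their median was −0.18, beside −0.04 over those genes. Of the 8 averaging 100 counts or more, 1 was 1.5-fold higher in replicate 2 and 0 were lower. Over the 145 long noncoding genes at that depth, 3.45% were 1.5-fold apart. Mir22hg, the host of a microRNA, was higher at 0.71 and H19, an imprinted muscle RNA, at 0.10. Kcnq1ot1 was lower at −0.55, Lncpint at −0.42 and 2900097C17Rik at −0.11. Under total counts the medians of the nuclear speckle, Malat1 end and Tug1 partner lists turned positive, at 0.07, 0.04 and 0.09, and under spike-ins those of the paraspeckle and myosin lists turned negative, at −0.14 and −0.11, all following the shift of the median gene. Ratios of single genes move by the same shifts. Myh1, H19 and Ehbp1l1, which were higher in replicate 2 with TMM, turned lower under spike-ins.

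**Figure D5:**
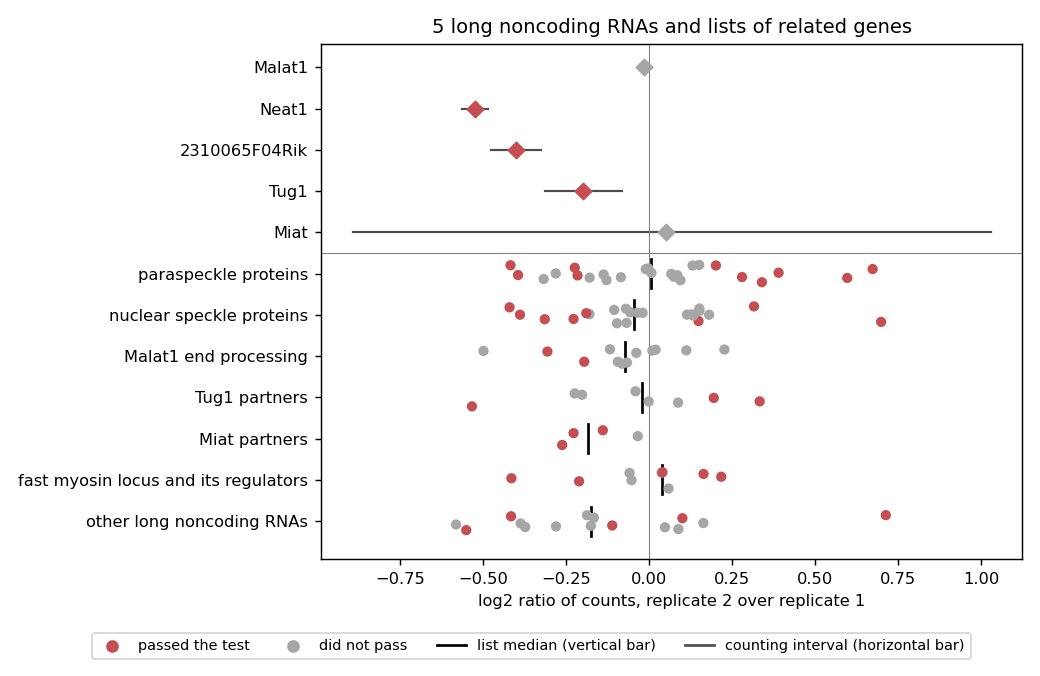
Log2 ratio of counts of replicate 2 over replicate 1 for the 5 long noncoding RNAs with their counting intervals (diamonds, horizontal bars) and for the tested genes of 7 lists (circles), with vertical bars for list medians; red marks genes that passed the test and grey those that did not, and circles are spread vertically for visibility. Neat1 lies at −0.52 and Malat1 at −0.02, while the paraspeckle list has a median of 0.01.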

How the data were processed

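Per the file headers and the README deposited with each library, there were 1 gene table and 2 transcript tables, on mm10 with the GENCODE M21 annotation. The first transcript table and the gene table came from transcriptome alignments, with column names as RSEM writes them, and the second transcript table came from reads and an index, with column names as kallisto writes them. The aligner, tool versions and strand setting are not given in the sources used here. The expected counts the authors deposited estimate reads and are not normalized. The deposited TPM values are scaled by effective length over all entries, spike-ins included. The deposited percent values give the share of a transcript in the TPM of its gene.

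For tests, expected counts were rounded, and the 96 spike-ins and other non-gene entries were set aside. TMM sizes came from edgeR 4.0.16 in R 4.3.3. A prior of 1 count was added for log2 ratios. The exact binomial test with Benjamini-Hochberg adjustment covered genes averaging at least 10 counts. It was also run on simulated counts with no variation between animals, which checks the code and not its use on these libraries. Transcript ratios have counting intervals only, which cover neither the error of assigning reads to transcripts nor variation between animals. The alternatives were size factors from DESeq2 1.42.0, total counts, spike-ins, the second quantification, no minimum, a minimum of 50 counts, a prior of 0.5, an assumed biological variation of 0.1, other denominators and each animal alone. Word and motif searches and figures were made in Python 3.11.15 with pandas 2.3.3, numpy 2.4.6, matplotlib 3.10.9 and scipy 1.17.1.

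The rule for named genes took the 5 members, in each other list the 4 genes of highest TPM and the 2 of largest ratio among those averaging at least 100 counts, and tested neighbours within 100 kb. Nono, Sfpq, Pspc1, Nudt21, Cpsf6, Rpp25, Celf3, Ttn, Gm42418 and Lars2 lie outside it and were named after their values were seen. A few genes of these lists and neighbourhoods are counted but not reported here by name. The members and lists were chosen with earlier results of these data known. The alleles of the parent strains were not separated, since the tables hold 1 value per gene.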

Additional observations from a re-analysis of the deposited data

How the results depend on the processing

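Of 117 values recomputed under other settings, 85 stayed within set bounds, which were the direction and side of the threshold for a test, a factor of 1.5 for a count of calls, and the SD between the animals for a level or share. Of the rest, 24 moved beyond them and 3 changed direction. Among tests that kept their direction, 4 lost a call and 1 gained one. Malat1 under total counts both changed direction and gained a call. With either animal left out, a level or share lies within the SD by construction. Such values are among the 85 but do not test stability. The prior of 0.5 enters only the log2 ratio, so it cannot change a call. The other minimum counts change only which genes are tested and the adjustment. These settings say little about stability either. No paired analysis was possible because there is 1 group of 2 animals, and leaving out either animal leaves a level or share but no comparison. Under total counts Malat1 turned to 0.10, Tug1 was at −0.085 and not called, 13 nuclear speckle genes were called in place of 8, and 1 Miat partner in place of 3. Under spike-ins Malat1 was called at −0.17, Miat turned to −0.10, and 5018 genes were called in place of 3043. With an assumed biological variation of 0.1, 290 genes were called, and Neat1 (−0.53), 2310065F04Rik (−0.41) and Tug1 (−0.20) were not. With DESeq2 size factors and with the second quantification, 1 gene of the Malat1 end list was called in place of 2. With nuclear protein-coding genes as the denominator, mean levels were 1358 TPM for Malat1, 188 for Neat1, 135 for 2310065F04Rik, 26.1 for Tug1 and 0.449 for Miat. In the second quantification they were 332 TPM for Malat1, 68.3 for Neat1 and 0.368 for Miat, and the share of the gene was 81.4% for Neat1-202, 54.4% for Malat1-201, 47.4% for 2310065F04Rik-201 and 2.32% for Tug1-203. As a share of counts in place of TPM, Neat1-201 held 47.4%, Neat1-202 52.3%, Malat1-201 88.0%, 2310065F04Rik-201 75.8% and Tug1-203 42.2%, since counts weight by length. The log2 ratio of Neat1 over 2310065F04Rik was 0.50 by TPM, 0.31 in the second quantification and −1.07 by counts per kb of the longest transcript, an alternative chosen after seeing the data. Miat gave no value at a minimum of 50 counts. Other causes of these shifts were not tested. Depth limits Miat, and few distinguishing positions limit the shares within Tug1 and Malat1. Intervals cover counting error only.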
